A study of Homo sapiens with 18 samples.

Results

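RNA recovered with Flag-tagged SBP2 from selenite-treated HEK293T cells was compared with the RNA of the same lysates before precipitation. The comparison rests on the 6 libraries whose labels name SBP2 with selenite, 3 RNA immunoprecipitation (RIP) libraries and 3 inputs, out of 18 libraries in the series. They were chosen by their titles and column names, not by any measured value. HEK293T is an embryonic kidney line that takes up plasmids readily, and the label of the growth protocol gives HEK293. In the SBP2 plus selenite group, cells carried a transiently transfected Flag-SBP2 plasmid and received 100 nM sodium selenite 4 h after transfection. The SBP2 group carried the same plasmid without selenite. The control group carried the Flag plasmid, also without selenite. SBP2 plus selenite thus differed from the control in both plasmid and selenite, which that comparison cannot tell apart. All groups were harvested at 48 h in NP40 buffer with 150 mM KCl, and all depended on transient transfection. In both SBP2 groups the tagged protein was overexpressed and came on top of the endogenous one. For each RIP, 4 mg of protein met 120 µl of anti-Flag magnetic beads for 5 h, with washes at 300 and 500 mM KCl, and 1 part in 5 of the sample was kept beforehand as input. The labels call the molecule polyA RNA.

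SBP2 is the SECIS-binding protein of the selenocysteine machinery. Selenoprotein mRNAs carry a SECIS stem-loop in the 3′ untranslated region, and SBP2 bound to it helps the ribosome read a UGA codon as selenocysteine in place of a stop. Selenium supply is known to set how much selenoprotein a cell makes, and selenite is a common source of it in culture. The count table named genes by Ensembl ID alone, and 0 of its 58676 IDs could be matched to a symbol in the reference table of 59792 genes. Genes are therefore described by ID and by groups of IDs. SECISBP2, which encodes SBP2, selenoprotein genes and markers of the HEK293 line were not looked up, and no RNA sequence is shown.

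The RIP libraries held 23.2 ± 3.10 M counts and their inputs 18.1 ± 1.32 M (SD, n = 3, where 1 M is 1e+06 counts). Between 23613 and 24805 IDs were detected in the RIP libraries, against 24016 to 24326 in the inputs. Replicates of the SBP2 plus selenite group correlated at 0.994 to 0.995 in RIP and 0.987 to 0.993 in input (Pearson's r of log2 CPM over 13205 IDs, where CPM are counts per 1e+06 counts of the library). In a principal component analysis of all 18 libraries, the first component (71.0% of the variance) placed the RIP libraries with selenite at -36.8, -47.4 and -47.1 and their inputs between 45.7 and 51.9. RIP replicate 1 thus lay nearest to the inputs, and without it 5222 IDs were called higher and 5297 lower in RIP than in input, against 5422 and 5581 with it. The labels do not say whether the replicates were transfected separately, so p-values may measure technical spread.

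The strongest recovery with SBP2 and selenite was seen for ENSG00000183291. Its level was 2285, 2510 and 2930 CPM in the RIP libraries, against 247, 232 and 184 CPM in the inputs of the same lysates. Every RIP library was far above every input, and replicates without overlap were required of named IDs. The level rose 11.6-fold in RIP over input (log2 change 3.54, SE 0.16, edgeR quasi-likelihood adjusted p = 2.06e-15). In SBP2 RIP without selenite it held 2742, 2936 and 2845 CPM, against 294, 297 and 216 CPM in the inputs. In control RIP it held 119, 136 and 117 CPM, against 319, 221 and 190 CPM in control inputs, so that RNA recovered by the beads from control lysates held less of it than the lysate. The log2 ratio of RIP to input was thus 3.54 with SBP2 and selenite, 3.40 with SBP2 alone and -0.97 in the control. The difference between selenite-treated SBP2 and control lysates was 4.51 (SE 0.22, edgeR adjusted p = 2.02e-14).

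ENSG00000211450 came next, with 775, 744 and 893 CPM in RIP with SBP2 and selenite, against 77.4, 73.4 and 76.3 CPM in input. Its inputs lay close together, and its RIP libraries were all about an order of magnitude above them (log2 change 3.41, SE 0.13, edgeR adjusted p = 6.04e-17). Without selenite the RIP level was lower, at 482.5, 600.2 and 599.6 CPM, and so was the input, at 63.2, 48.6 and 48.1 CPM. The ratio was therefore nearly the same without selenite, at a log2 of 3.40. The difference between the SBP2 treatments in this ratio was 0.01, with a 95% interval from -0.33 to 0.35. In control lysates this RNA was at 28.4, 31.1 and 24.2 CPM in RIP, against 66.1, 51.7 and 51.5 CPM in input. The ratio with SBP2 and selenite exceeded that of the control by 4.42 on the log2 scale (SE 0.17, edgeR adjusted p = 5.56e-16). Both this ID and the one before it were named for their ratios in the selenite libraries, which also enter their differences from the control.

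**Figure D1:**
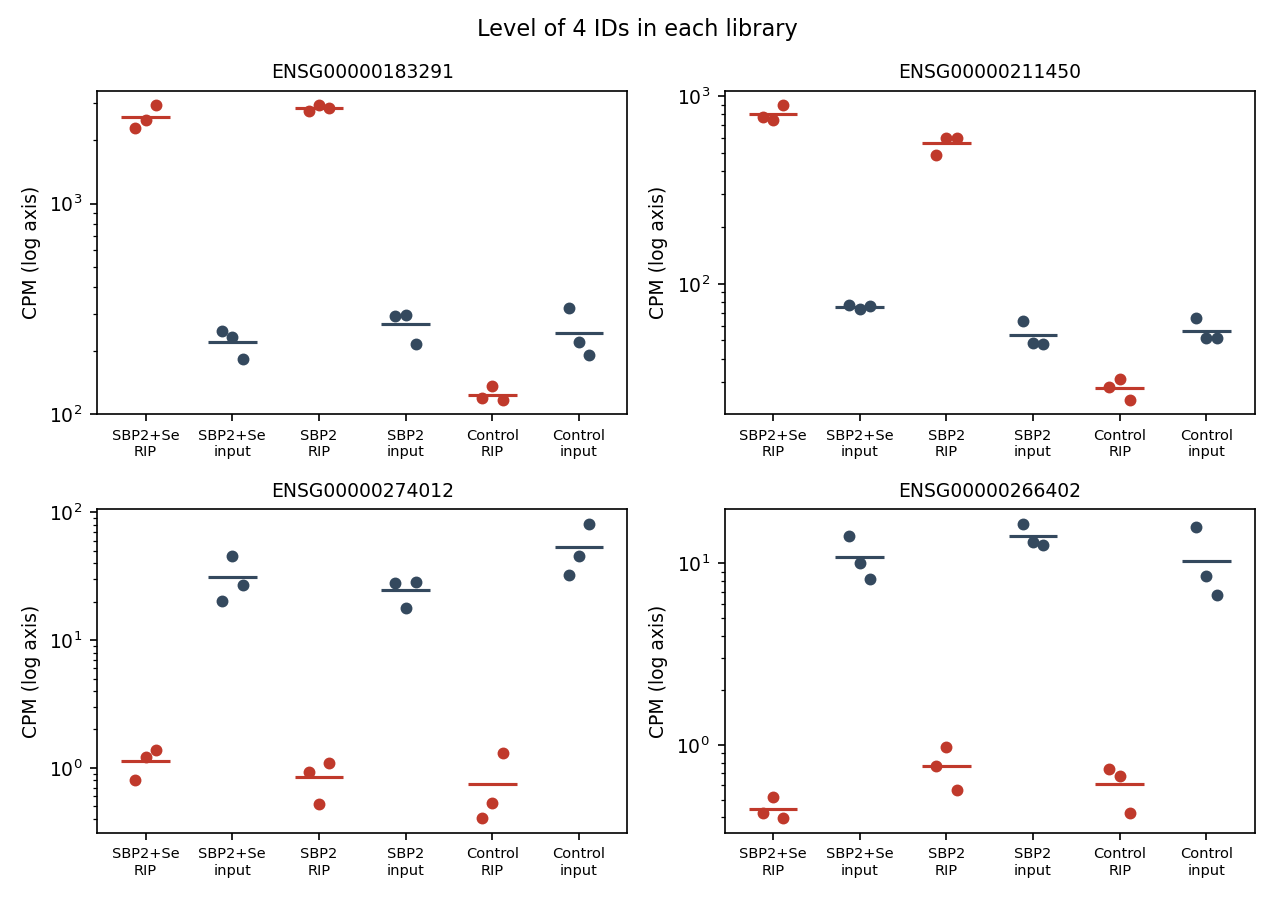
Level of 4 Ensembl IDs in each of the 18 libraries, in CPM on a log axis whose range differs between panels. Points are libraries, bars are group means (n = 3), RIP is red and input dark blue. The first 2 IDs are above input in both RIPs with SBP2 and below it in the control, and the other 2 are below input in all 3 precipitations.

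At the other end, ENSG00000274012 was nearly lost from the precipitate. It held 0.799, 1.22 and 1.39 CPM in RIP with SBP2 and selenite, against 20.1, 45.9 and 26.9 CPM in input (log2 change -4.77, SE 0.39, edgeR adjusted p = 8.84e-11). ENSG00000266402 held 0.420, 0.517 and 0.397 CPM in RIP, against 14.2, 10.04 and 8.25 CPM in input (log2 change -4.57, SE 0.34, edgeR adjusted p = 1.57e-11). The RIP values of both rest on few counts, and their errors are accordingly wide. Both RNAs were reduced by the control precipitation as well, at log2 changes of -6.11 and -4.06. Their ratios with SBP2 and selenite did not differ from those of the control at the threshold (edgeR adjusted p = 0.109 and 0.505). The first of these tests depended on the fit. The difference for ENSG00000274012 was 1.34 and passed in 5 of 22 other fits, with adjusted p-values from 0.00037 to 0.261 over the 22. These were the fit with the lysate as a replicate block (1.38, edgeR adjusted p = 0.000493), the fit with no low-count filter (1.18) and those without SBP2Se input replicate 2 (1.74), control RIP replicate 3 (2.07) or control input replicate 1 (1.60). Without control input replicate 3 the difference was 0.89 (edgeR adjusted p = 0.219), and the ratio was higher with SBP2 and selenite in all 22. The difference for ENSG00000266402 was -0.51, and over 22 other fits it ran from -1.33 (after thinning) to -0.27 (without SBP2Se input replicate 1 or control input replicate 3), with adjusted p-values from 0.0893 to 0.738.

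Recovery with SBP2 and selenite differed from the lysate for most tested IDs. Of 17678 IDs, edgeR called 5422 higher in RIP than in input (30.7% of those tested) and 5581 lower (31.6%). At 2-fold or more there were 1491 higher (8.43%) and 2618 lower (14.8%), and at 4-fold or more 102 higher (0.577%) and 682 lower (3.86%). Large changes were thus mostly losses from the precipitate. The median log2 ratio over all tested IDs was -0.00 with TMM scaling, and these are changes relative to the bulk of the RNA and not amounts.

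The lysates gave much the same picture one by one. Single-lysate log2 ratios correlated across 13205 IDs at 0.958 (lysates 1 and 2), 0.901 (lysates 1 and 3) and 0.935 (lysates 2 and 3). These are correlations across genes, which are not independent replicates. Of the higher IDs 5382 were above input in 3 of 3 lysates, and of the lower IDs 5471 were below it in 3 of 3. The calls came from these same libraries, so such agreement among called IDs largely follows from the calls. The share with 3 of 3 over all tested IDs was not computed. Among the called IDs, the SD of the ratio over lysates had a median of 0.19. RIP and input libraries did not overlap for 5224 of the higher and 5291 of the lower IDs, where 32.4% and 32.7% of all tested IDs had no overlap in these directions.

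Losses dominated among IDs with few counts. Of 3052 IDs with a mean log2 CPM below 0, 231 were higher (7.57%) and 789 lower (25.9%), and of 2671 IDs between 0 and 2, 432 were higher (16.2%) and 869 lower (32.5%). Gains were more frequent than losses from a mean log2 CPM of 4 upward. In the 5260 IDs from 4 to 6 they made up 42.2% against 31.7% for losses, and in the 2969 from 6 to 8 they made up 44.7% against 33.4%. The median standard error of the log2 change was 0.45 in the lowest class and 0.09 in each of the 2 highest, so that rarer IDs needed larger changes to be called. Below a mean log2 CPM of 0, the median log2 ratio was -0.30 with SBP2 and selenite, -0.25 with SBP2 alone and -0.41 in the control. A shift to losses among rare IDs was thus not particular to SBP2 with selenite. CPM is not corrected for gene length here, and these classes describe counts, not RNA molecules.

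**Figure D2:**
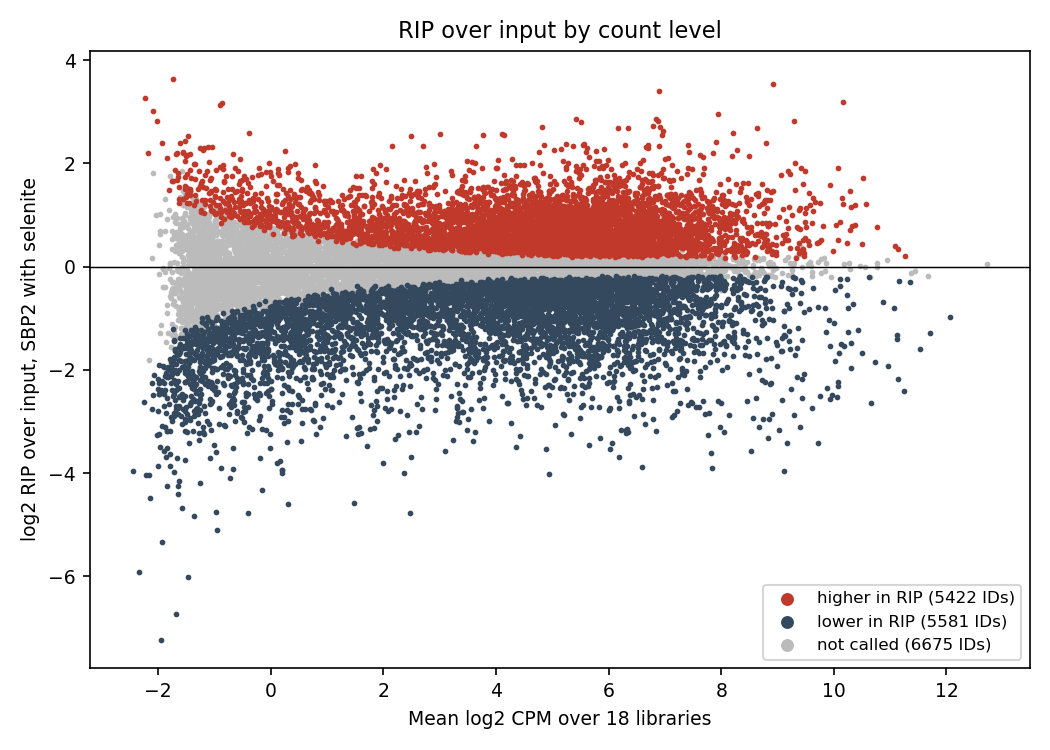
Log2 ratio of RIP to input with SBP2 and selenite (vertical axis) against mean log2 CPM over 18 libraries (horizontal axis), with 1 point per ID and 17678 in all. Red IDs (5422) were higher and dark blue IDs (5581) lower in RIP at an edgeR adjusted p under 0.05, and the grey band of uncalled IDs (6675) narrows as counts grow.

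**Figure D3:**
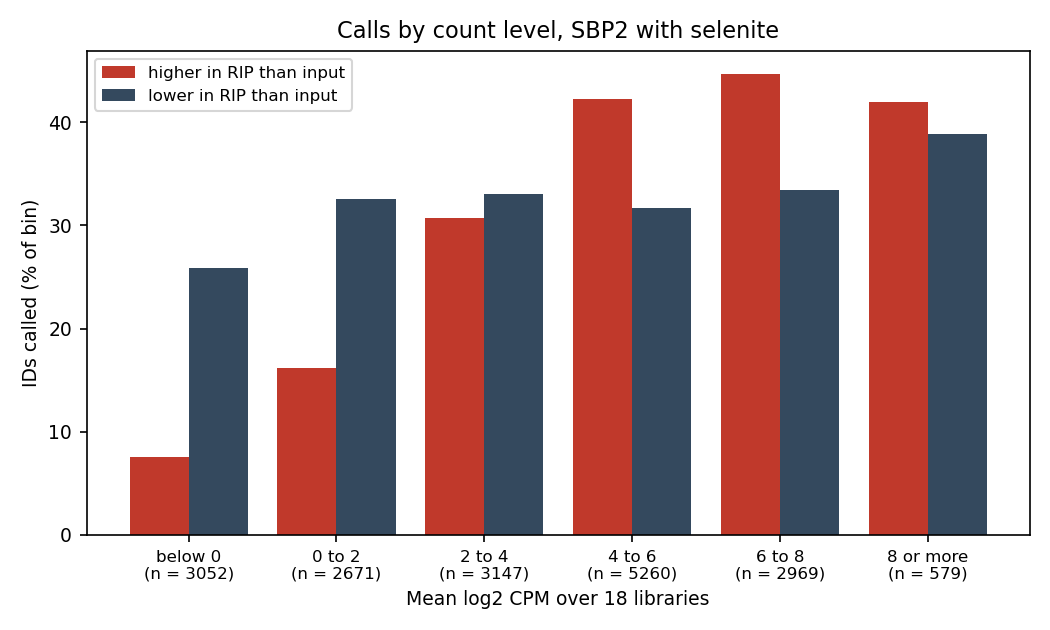
Share of IDs called higher (red) or lower (dark blue) in RIP than in input with SBP2 and selenite, by mean log2 CPM over 18 libraries, as percent of the IDs in each class. Gains fall from 44.7% of IDs at 6 to 8 to 7.57% below 0, and losses fall less, to 25.9%.

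Setting the selenite precipitation beside the control separated the recovered RNAs into groups. The 2 experiments share no library. Of the 5422 IDs higher in RIP with SBP2 and selenite, 3870 (71.4%) were also higher in control RIP than in control input, 938 were not called there, and 614 (11.3%) were lower there. In control RIP, 31.5% of all tested IDs were higher and 39.8% lower. Of the 5581 IDs lower with SBP2 and selenite, 4827 (86.5%) were lower in the control too, and 47 were higher there. The scaling moved the control most: with library size alone its median over all tested IDs went to 0.06 on the log2 scale, against -0.13 with TMM factors, and its calls became 6600 higher and 5952 lower.

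The groups differed in strength. Where the mean log2 CPM was at least 1, 71 IDs were called with a log2 ratio of 2 or more with SBP2 and selenite. Their median was 2.34 with SBP2 and selenite, 2.42 with SBP2 alone and 0.04 in the control, where 31 were higher than input, 26 lower and 14 not called. Among 1131 IDs with ratios from 1 to 2 the control median was 1.05, and 878 of them were higher than input in the control. Among 3795 IDs called with ratios from 0 to 1, 2794 were higher in the control, with a median of 0.69. The control thus recovered 31 of the 71 strongest IDs, against 878 of 1131 and 2794 of 3795 in the weaker groups. Over all tested IDs, without the abundance limit, 31.5% were higher in the control. The 71 strongest IDs were thus not below that share. The contrast between the groups was not tested. Membership was decided by the RIP over input contrast with selenite, and all 18 libraries entered the abundance limit, the scaling and the spread behind the calls.

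The most depleted IDs showed no such divide. All 57 IDs called with a log2 ratio of -3 or less, and all 265 with ratios from -3 to -2, were also lower than input in the control, at median control ratios of -3.53 and -2.71. The same was true with SBP2 alone, where all 57 and all 265 were lower.

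Read from the control side, RNAs that the beads recovered best were less enriched with SBP2 and selenite. The 132 IDs with a control log2 ratio of 2 or more had a median of 1.23 with SBP2 and selenite, against 2.16 in the control, and all 132 were called higher than input with selenite. The 1772 IDs with control ratios from 1 to 2 had medians of 0.79 with SBP2 and selenite and 1.30 in the control. IDs with a control ratio of -2 or less (734 in number) had medians of -1.85 with SBP2 and selenite and -2.49 in the control. Among the 734, 680 were called lower with SBP2 and selenite and 23 higher. These classes were chosen on the control values, so the difference between the medians is a description.

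Over the 13205 IDs, log2 ratios had an SD of 0.86 with SBP2 and selenite, 0.87 with SBP2 alone and 1.09 in the control. With SBP2 and selenite the correlation across these IDs was 0.975 with SBP2 alone and 0.789 with the control. The 100 IDs with the highest ratio in the selenite precipitation included 77 of the 100 highest with SBP2 alone and 0 of the 100 highest in the control. Their median control ratio was 0.15, with 44 of the 100 below input. Over all 13205 IDs the median control ratio was -0.05. Being below input in the control was thus no more frequent among the 100 than among all these IDs. The 100 lowest shared 83 with SBP2 alone and 58 with the control.

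**Figure D4:**
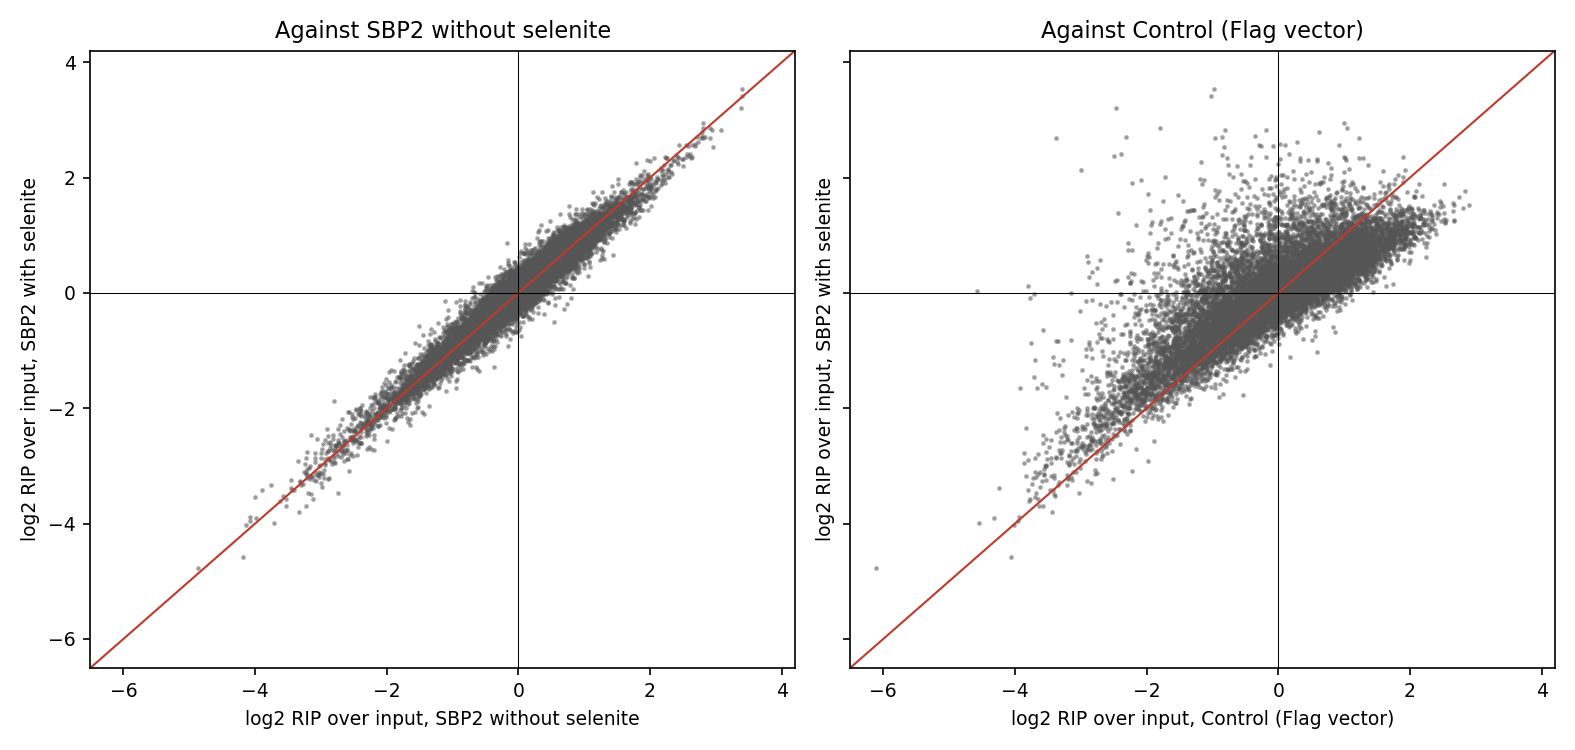
Log2 ratio of RIP to input with SBP2 and selenite (vertical axis) against SBP2 without selenite (left) and the control (right), for 13205 IDs (mean log2 CPM at least 1). The red line marks equal ratios. Points follow it closely on the left (r = 0.975) and spread more widely on the right (r = 0.789), where a group of IDs above input with SBP2 lies below input in the control.

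The same contrast appeared in the make-up of the libraries. The 102 IDs recovered 4-fold or more took 3.23, 3.42 and 3.77% of all counts in RIP with SBP2 and selenite, against 0.540, 0.564 and 0.557% in input. These libraries chose the IDs, so the difference there is a description. The contrasts of the other libraries were not used for the choice, although these libraries entered the filter, the scaling and the spread of the same fit. The 102 IDs took 3.40, 3.65 and 3.71% of SBP2 RIP without selenite, against 0.556, 0.538 and 0.520% of its inputs. In control RIP they took 0.589, 0.584 and 0.565%, against 0.574, 0.564 and 0.553% in control input. The control RIP and input ranges overlapped, while both SBP2 precipitations lay far above their inputs. These are summed shares, in which opposite moves of single IDs can cancel. Of the 71 among them with a mean log2 CPM of at least 1, 31 were higher and 26 lower than input in the control.

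The wider group of 1491 IDs recovered 2-fold or more took 20.2 ± 0.851% of counts in RIP with SBP2 and selenite and 6.97 ± 0.275% in input (SD, n = 3). In control RIP the same IDs took 15.8 ± 0.178%, against 6.85 ± 0.190% in control input (SD, n = 3), so that this larger group was recovered by the beads as well. The 2618 IDs reduced 2-fold or more took 8.56 ± 0.831% of counts in RIP with SBP2 and selenite and 27.9 ± 1.06% in input. In the control they took 7.83 ± 0.239% in RIP and 27.6 ± 1.26% in input (SD, n = 3). All 3 control RIP libraries were below all 3 control inputs for these IDs.

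**Figure D5:**
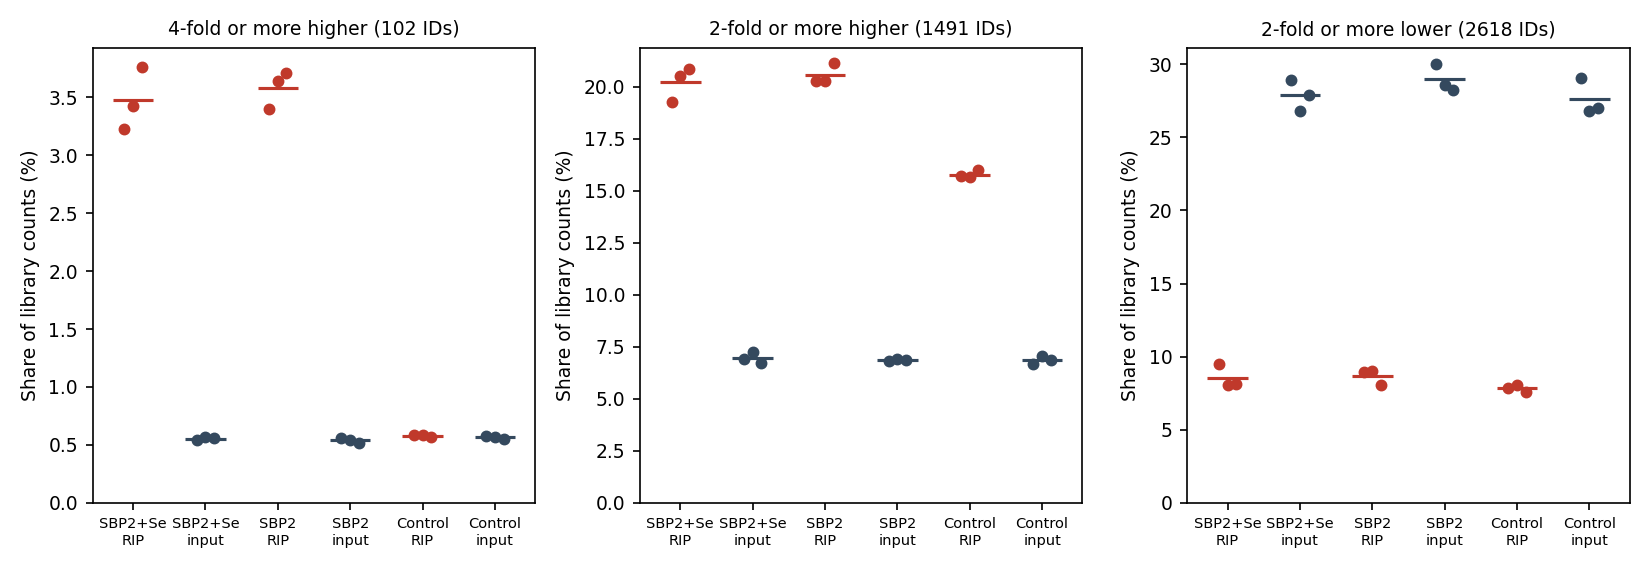
Share of each library's counts, in percent, taken by 3 groups of IDs chosen in the SBP2 plus selenite libraries: 102 IDs at least 4-fold higher in RIP, 1491 at least 2-fold higher and 2618 at least 2-fold lower. Points are libraries, bars are means (n = 3), and the axes start at 0 with different upper ends. The summed share of the 102 IDs is raised in both SBP2 precipitations, while its RIP and input ranges overlap in the control. Single IDs among the 102 can move in the control. The summed shares of the other groups move in the control too.

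The most counted IDs took a smaller part of the precipitate. The 100 most counted IDs of each library took 17.2, 16.7 and 17.2% of counts in RIP with SBP2 and selenite, against 20.8, 19.4 and 20.4% in input. The number of IDs that together made up 50% of the counts was 1068, 1095 and 1063 in RIP and 896, 973 and 896 in input. Both measures separated RIP from input without overlap (two-sided exact permutation p = 0.1 for each, the smallest that 3 against 3 libraries allow). The number of IDs making up 90% of the counts was 6150 to 6200 in RIP and 5983 to 6203 in input, so that these ranges overlapped (two-sided exact permutation p = 0.4). The single most counted ID took 0.833, 0.876 and 0.671% in RIP and at most 0.710% in input, so that the libraries overlapped here too. In the control the 100 most counted IDs took 15.1 ± 0.234% in RIP and 20.1 ± 0.454% in input (SD, n = 3), with the same exact p. No ID was confined to the precipitate at a solid depth: of 30744 IDs with 0 counts in the 3 selenite inputs, 0 reached the filter's count of 10 in each RIP library, and the largest RIP total among them was 15 counts.

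The test of the difference from control, with the same selenite libraries, called 3416 IDs with a higher (19.3%) and 2540 with a lower ratio (14.4%), with 1367 (7.73%) and 294 (1.66%) at 2-fold or more. The balance of directions depended on the scaling and on the low-count filter. The share of higher ratios among calls was 57.4% with TMM factors, 50.1% with upper-quartile factors (3036 higher, 3024 lower), 45.0% with DESeq2 size factors (2784 higher, 3397 lower), 42.7% with library size alone (2670 and 3582) and 40.3% with TMM factors and no low-count filter (2475 and 3670, of 35033 IDs). These settings gave the median difference over the tested IDs as 0.03, -0.04, -0.08, -0.10 and -0.13 on the log2 scale, in this order. RIP over input and this difference use the same selenite libraries, so their lists are not set against each other.

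In the test of recovery with against without selenite, no ID passed (0 of 17678, smallest edgeR adjusted p = 0.989), and DESeq2 and limma voom also called 0. At an unadjusted p under 0.05 there were 800 IDs, fewer than this threshold would be expected to give if no ID differed. That depended on the fit. Over other fits of the same 17678 IDs, the number ran from 553 (without SBP2 input replicate 2) to 1297 (without SBP2Se input replicate 1). It was 1046 with the replicate block, and the highest of these numbers exceed that expectation. Without a low-count filter 1 ID passed, ENSG00000213613, named after its values were seen (difference -1.08, edgeR adjusted p = 0.0207). It held 114 to 383 counts in the SBP2 libraries, so it was also tested in the filtered fit and did not pass there. The unfiltered fit gave far smaller p-values for other IDs too. For RIP over input of ENSG00000266402 the edgeR adjusted p was 4.96e-80 there, against 1.57e-11 with the filter. In the filtered fit, the 95% interval of the selenite difference reached a median of 0.39 to either side on the log2 scale, and for 83.2% of IDs it reached less than 1 to either side. The smallest p-value was that of ENSG00000184900, with a ratio of 0.88 with selenite and 1.31 without (difference -0.43, 95% interval -0.64 to -0.22, edgeR adjusted p = 0.989). Of the 5422 IDs higher with selenite, 4746 were also higher in the SBP2 precipitation without it (87.5%, and 88.5% of the 5362 higher there, which were 30.3% of those tested), and 0 were lower.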

How the data were processed

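The deposited values are raw counts, whole numbers for each Ensembl ID in each library. Per the submitters' processing notes, the tools were Trim Galore 0.6.6 for trimming, STAR 2.7.6a for alignment and featureCounts 2.0.1 for counting, with the GRCh38 build. Annotation, strand setting and handling of multi-mapping reads were not given in sources used here, so paralogs, pseudogenes and overlapping genes may share counts.

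The filterByExpr function of edgeR 4.0.16 kept 17678 of 58676 IDs, at least 99.9% of each library's counts. Counts were scaled by TMM factors, which also enter every CPM, and 1 group-means model over 18 libraries was fitted, followed by the two-sided quasi-likelihood test of edgeR (R 4.3.3, Benjamini-Hochberg, threshold 0.05). Standard errors came from the test statistic. Single-lysate ratios are differences of log2 CPM with a prior count of 2. DESeq2 1.42.0 and limma 3.58.1 served as alternatives, and the pipeline was tested on simulated data.

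For RIP over input, named IDs had the largest changes among called IDs with a mean log2 CPM of at least 1 and replicates without overlap. For the selenite difference, the ID with the smallest p-value and 1 ID chosen after its values were seen are named. Since no symbols matched, at most 2 IDs per direction and comparison are named, and the 22 gene lists were not used. ID groups and rules were chosen with earlier results of these data known. Replicate pairs of the 6 libraries differed by 6.98 to 19.6 times sampling noise (chi-square over its degrees of freedom, IDs with 30 or more counts in the pair), so none was counted as a duplicate. Each RIP and its input came from 1 lysate, per the labels' protocols, and their deviations from group means correlated at 0.15, 0.39 and -0.13. Between RIP and input of unlike replicate number the correlation ran from -0.37 to 0.14. Pairing by number, on which the single-lysate ratios and the replicate block rely, was thus plain in these values for replicate 2 alone.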

Additional observations from a re-analysis of the deposited data

Results flagged for a closer look

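The ratio of RIP to input with SBP2 and selenite differed from that of the control by a test of the difference itself (edgeR quasi-likelihood test, adjusted p under 0.05) for 3416 IDs with a higher and 2540 with a lower ratio. Among the IDs described, ENSG00000183291 differed by 4.51 (edgeR adjusted p = 2.02e-14) and ENSG00000211450 by 4.42 (edgeR adjusted p = 5.56e-16) on the log2 scale. Both were below input in 3 of 3 control lysates. Both IDs were named for large ratios without overlap in the selenite libraries, so being above input there was fixed by the choice. Those libraries also enter the difference, so its p-values are not separate support. No group was large enough to be searched for outlying libraries.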

How the results depend on the processing

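Counts of IDs higher and lower in RIP than in input with SBP2 and selenite ranged from 5025 to 5806 and from 5189 to 5939 over 10 other settings, and from 5001 to 5222 and from 5112 to 5297 when each of 6 libraries was left out. No ID called in the original fit was called in the opposite direction in any of these settings. With the lysate as a replicate block there were 5584 higher and 5669 lower IDs, and the block moved no count by over 1.5 times. Counts of the difference from control ranged from 2475 to 3631 higher and from 2211 to 3670 lower, and from 3054 to 3428 and 2195 to 2656 with 1 of 12 libraries left out. The selenite difference gave 0 calls in every setting except that 1 ID was lower with no low-count filter. Thinning all libraries to 15.2 M counts, chosen after seeing the data, gave 5217 higher and 5411 lower IDs with SBP2 and selenite. The 4 IDs described for RIP over input kept their direction and passed in all 16 settings, at -5.16 to -4.33 for ENSG00000266402 and 3.42 to 3.63 for ENSG00000183291. The share of counts of selenoprotein mRNAs and the relation to protein length were not run, since no ID could be matched to a symbol. Depth limits IDs with a mean log2 CPM below 0 most.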
